A study of Mus musculus with 12 samples.

Results

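The 10 genes described here encode the enzymes that make prostaglandins and thromboxane in macrophages and a pair of receptors that sense prostaglandin E2. They are Pla2g4a, Ptgs1, Ptgs2, Ptges, Ptges2, Ptges3, Hpgds, Tbxas1, Ptger2 and Ptger4. They were chosen by symbol, with earlier results of these data known, and all 10 were found among the 50559 gene symbols of the count table. All 10 also passed the filter on low counts, which left 13530 genes for testing. The cells were macrophages raised in culture from the bone marrow of C57BL/6 mice. One group of 6 libraries came from cells given house dust mite (HDM) allergen, a mixture known to provoke airway allergy, for 1 h, and the other group of 6 from cells given vehicle. No transgene, deleted gene or second agent is named for either group, and the sources used here do not give the age and number of the mice, the HDM dose or the make-up of the vehicle. The study concerns AKAP79/150, a scaffold that anchors protein kinase A and calcineurin. Nothing says whether libraries of a group came from separate animals or cultures, so the p-values measure the spread between these libraries, which may be technical.

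Prostaglandin synthesis begins when a phospholipase frees arachidonic acid from membrane lipid. A cyclooxygenase then turns arachidonic acid into the unstable prostaglandin H2, and terminal synthases convert that into prostaglandin E2, prostaglandin D2 or thromboxane. Prostaglandin E2 acts on macrophages mainly through the receptors EP2 and EP4, which raise cyclic AMP and so activate protein kinase A. In macrophages the cyclooxygenase COX-1 is made constantly, while COX-2 is known as an early response gene of inflammatory stimuli.

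The depth was 19.76 to 119.71 M counted reads a library with HDM (median 41.11 M) and 19.69 to 62.41 M with vehicle (median 41.71 M). Over all genes, the libraries numbered 5 and 6 of both treatments stood apart from those numbered 1 to 4 on the first principal component, which held 42.2% of the variance, so values are also given within each set of numbers. The 8 macrophage markers checked, among them Csf1r, Adgre1 and Lyz2, summed to 17876 to 21349 CPM (counts per M reads, with TMM scaling) with HDM and 16802 to 21062 with vehicle; of them only Cd14, itself a gene of the response to microbial products, was called (higher). Markers of other cells were low: 6 fibroblast markers summed to 0.747 to 2.53 CPM with HDM and 0.998 to 4.56 with vehicle, 8 mast cell and basophil markers to at most 2.29, 6 platelet and megakaryocyte markers to at most 1.39, 7 neutrophil markers to at most 6.30, 6 dendritic cell markers to at most 1.17 and 6 lymphocyte markers to at most 0.165. The mast cell and basophil genes Fcer1a, Ms4a2, Mcpt8 and Tpsb2, the platelet gene Gp1bb and the T cell gene Trac had no read in any library. With the replicate block 2 of the fibroblast markers, Col1a1 and Col1a2, were called lower with HDM, and the part of such cells in the results was not tested.

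Of the 10 genes, 2 rose after 1 h of HDM and none fell. Ptgs2, the gene of COX-2, rose 56.9-fold, and Ptger4, the gene of the EP4 receptor, rose 2.11-fold. The other 8 did not pass the test, at log2 fold changes between -0.06 and 0.15. Calls are at an adjusted p under 0.05 in edgeR's quasi-likelihood test, adjusted over all 13530 tested genes, of which 2.9% were called higher and 2.47% lower. At an unadjusted p under 0.05 the same 2 genes passed, both higher, beside 14% of all tested genes in either direction. DESeq2 and limma-voom each also called 2 higher and none lower. Over all tested genes DESeq2 called 526 higher and 429 lower, and limma-voom 410 and 370. With the replicate number as a block edgeR called 3 higher, Pla2g4a being added, and none lower, beside 7.9% of all tested genes called higher in that fit. The median log2 fold change of the 10 genes was 0.02, against -0.0048 over all tested genes. In 2 of the 10 genes, again Ptgs2 and Ptger4, every HDM library lay above every vehicle library, as in 2.32% of tested genes. These are bulk samples, so more cells expressing a gene and more RNA per cell cannot be told apart.

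**Figure D1:**
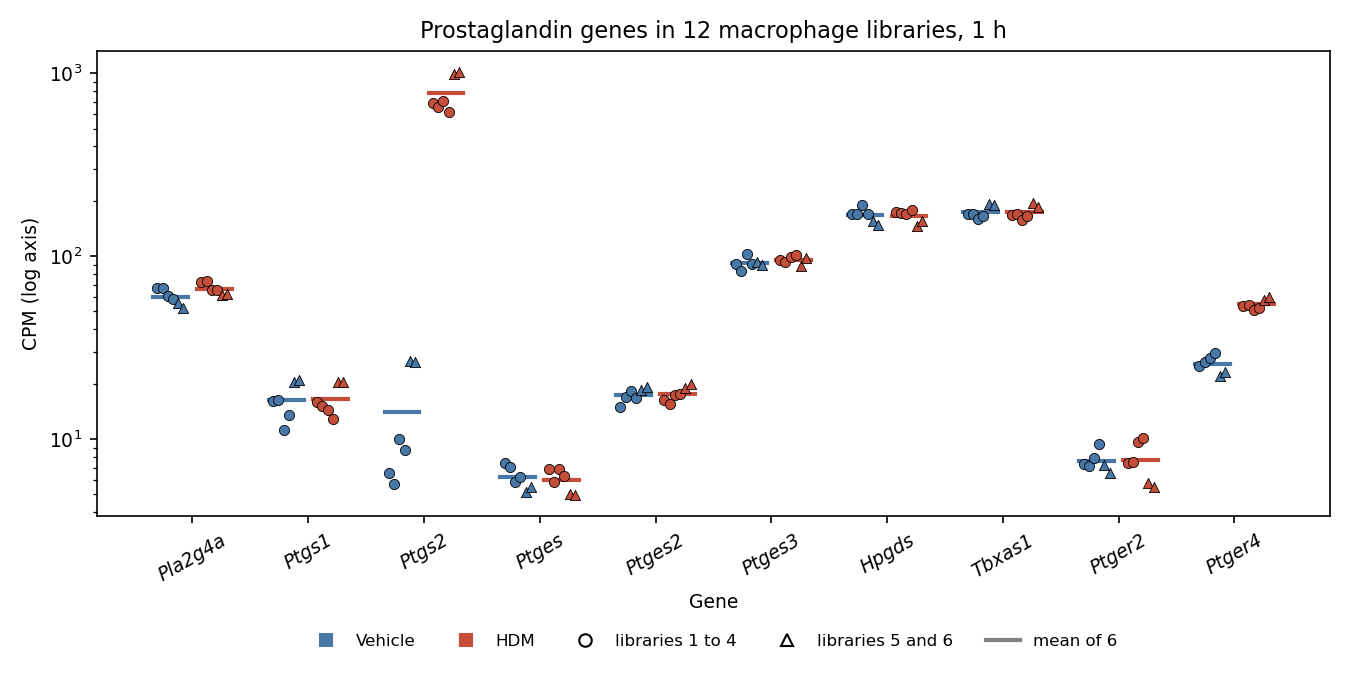
Level of each of the 10 genes in every library, in CPM on a log axis. Blue marks vehicle and red HDM, circles are the libraries numbered 1 to 4, triangles those numbered 5 and 6, and bars are means of 6. The HDM libraries lie above all vehicle libraries for Ptgs2 (614 to 1019 against 5.68 to 26.9 CPM) and Ptger4 (50.8 to 59.6 against 22.2 to 29.8 CPM).

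The cyclooxygenases catalyse the committed step and differed most in their response. Ptgs2 ranged from 5.68 to 26.9 CPM in the vehicle libraries (median 9.41) and from 614 to 1019 CPM in the HDM libraries (median 700). The lowest HDM library was far above the highest vehicle library, and the HDM library was higher in all 6 numbers. The mean was 781 ± 179 CPM in HDM libraries and 14.1 ± 9.93 in vehicle libraries (SD, n = 6 each), a log2 fold change of 5.83 ± 0.44 SE (edgeR adjusted p = 2.27e-06). By size this was the sixth largest rise among all tested genes, before any floor on level.

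The vehicle level of Ptgs2 was not uniform. It was 6.57, 5.68, 10.1 and 8.73 CPM in vehicle libraries 1 to 4, and 26.9 and 26.7 CPM in vehicle libraries 5 and 6. With HDM the libraries numbered 5 and 6 were again the highest, at 997 and 1019 CPM, against 614 to 707 in the other 4. As a ratio, the mean of numbers 5 and 6 over that of numbers 1 to 4 was 3.45 with vehicle and 1.51 with HDM, so the fold from vehicle to HDM was smaller in numbers 5 and 6. Within numbers 1 to 4 the ratio of the means was 86.0 and the log2 fold change 6.46 ± 0.14 SE (edgeR adjusted p = 5.61e-12), and within numbers 5 and 6 the ratio was 37.7 and the log2 fold change 5.24 ± 0.04 (adjusted p = 3.55e-49). The difference between these fold changes was not tested, since the sets of numbers are not groups of the study. The fit within numbers 5 and 6 held only those libraries of each group. Its p rests on their spread and on the spread that edgeR's test shares across genes, not on the spread of Ptgs2 alone.

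Ptgs1, the gene of COX-1, ran from 11.2 to 21.1 CPM with vehicle (median 16.3) and from 12.8 to 20.7 CPM with HDM (median 15.6). The groups overlapped over nearly their whole range. Its log2 fold change was 0.02 ± 0.16 SE (edgeR adjusted p = 0.9997), with a 95% interval from -0.34 to 0.38. Like Ptgs2 it was higher in numbers 5 and 6 than in numbers 1 to 4, at 20.6 to 21.1 against 11.2 to 16.5 CPM with vehicle and at 20.5 to 20.7 against 12.8 to 16.0 with HDM.

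Set side by side per kb of exon, Ptgs2 was below Ptgs1 in vehicle libraries 1 to 4, close to it in vehicle libraries 5 and 6, and far above it in every HDM library. Ptgs2 made up 22.7% to 52.6% of their summed level per kb in the vehicle libraries (median 39.2%) and 97.3% to 97.7% in the HDM libraries (median 97.6%). The ratio of Ptgs2 to Ptgs1 per kb was 0.345 and 0.293 in vehicle libraries 1 and 2, 0.762 and 0.542 in 3 and 4, and 1.11 and 1.07 in 5 and 6. With HDM it lay between 36.7 and 42.2 in all 6 libraries. The ratio thus varied 3.78-fold among vehicle libraries and 1.15-fold among HDM libraries. This is a description of 2 genes whose values are given above, with no test of its own. The lengths used, 3.884 kb for Ptgs1 and 4.58 kb for Ptgs2, join all annotated exons of a gene. Ratios near 1 and the vehicle shares therefore depend on them.

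The sequence before each start site is shown for the induced and the non-induced cyclooxygenase gene, because they encode the same enzymatic step and only 1 of them was called. Each run is the 250 bases before the start in the RefSeq promoter table, build GRCm38.p6, on the gene's own strand from 5′ to 3′. Ptgs2 is at chr1:150099781-150100030 and Ptgs1 at chr2:36230176-36230425, both on the plus strand. Capitals mark matches to any of the 10 motifs searched.
Ptgs2: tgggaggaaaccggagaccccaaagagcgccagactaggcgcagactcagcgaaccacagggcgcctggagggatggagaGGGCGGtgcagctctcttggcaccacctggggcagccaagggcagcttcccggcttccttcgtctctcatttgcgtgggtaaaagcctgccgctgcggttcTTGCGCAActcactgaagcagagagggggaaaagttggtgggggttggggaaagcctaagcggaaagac
Ptgs1: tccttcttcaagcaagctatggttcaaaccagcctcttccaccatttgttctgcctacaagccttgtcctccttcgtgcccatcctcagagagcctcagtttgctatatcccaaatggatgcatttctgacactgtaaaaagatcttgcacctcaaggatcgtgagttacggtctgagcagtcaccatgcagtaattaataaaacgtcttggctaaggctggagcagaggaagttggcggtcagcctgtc
Searches covered both strands of 300 bases, 250 before and 50 after the start, in all 32851 promoters of the table. The C/EBP palindrome, searched as TTGCGCAA, stood 69 to 62 bases before the Ptgs2 start, and 0.183% of promoters held it. A GC box, searched as GGGCGG and held by 35.7% of promoters, stood 170 to 165 bases before that start. In the 50 bases after it lay the core of the cyclic AMP response element on the minus strand, searched as TGACG, at bases 14 to 18 (held by 20.8% of promoters). It overlapped an E-box, searched as CACGTG, at bases 17 to 22 (held by 7.15% of promoters). The full response element that contains this core, searched as TGACGTCA, was not in the Ptgs2 window and was held by 1.79% of promoters. The remaining motifs were absent there too. These were the AP-1 site, searched as TGANTCA and held by 7.81% of promoters, and the TATA box, searched as TATAAA and held by 13.6% of promoters. The CCAAT box was searched by the letters of its name, and the kappa B motif and the serum response element (held by 1.63% of promoters) by their consensus. The Ptgs1 window held none of the 10 motifs. These matches describe letters in the sequence, not binding. Positions and absences hold only for the window around the start in the RefSeq table. Where transcription starts in these cells was not examined, and sequence outside the window was not searched.

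Upstream of the cyclooxygenases, Pla2g4a encodes the cytosolic phospholipase A2 that releases arachidonic acid. It ran from 52.2 to 67.2 CPM with vehicle (median 59.7) and from 61.5 to 73.5 CPM with HDM (median 65.4). The groups overlapped, but the HDM library was higher in all 6 numbers. The log2 fold change was 0.15 ± 0.07 SE, or 10.7% higher, and it was not called (edgeR adjusted p = 0.363). With the replicate number as a block it was called, at 0.15 ± 0.03 (edgeR adjusted p = 0.000836), beside 7.9% of all tested genes called higher. The labels do not say that libraries of equal number are pairs. The difference by number was 0.11, 0.14, 0.11, 0.15, 0.14 and 0.25 on the log2 scale for numbers 1 to 6. It was also called within numbers 5 and 6 alone (0.21 ± 0.05, adjusted p = 0.00202), where 4.25% of tested genes were called higher, and not within numbers 1 to 4 (0.13 ± 0.06, adjusted p = 0.216), where 5% were. The fit within numbers 5 and 6 held only those libraries of each group, so its call rests on their spread and on that shared across genes.

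**Figure D2:**
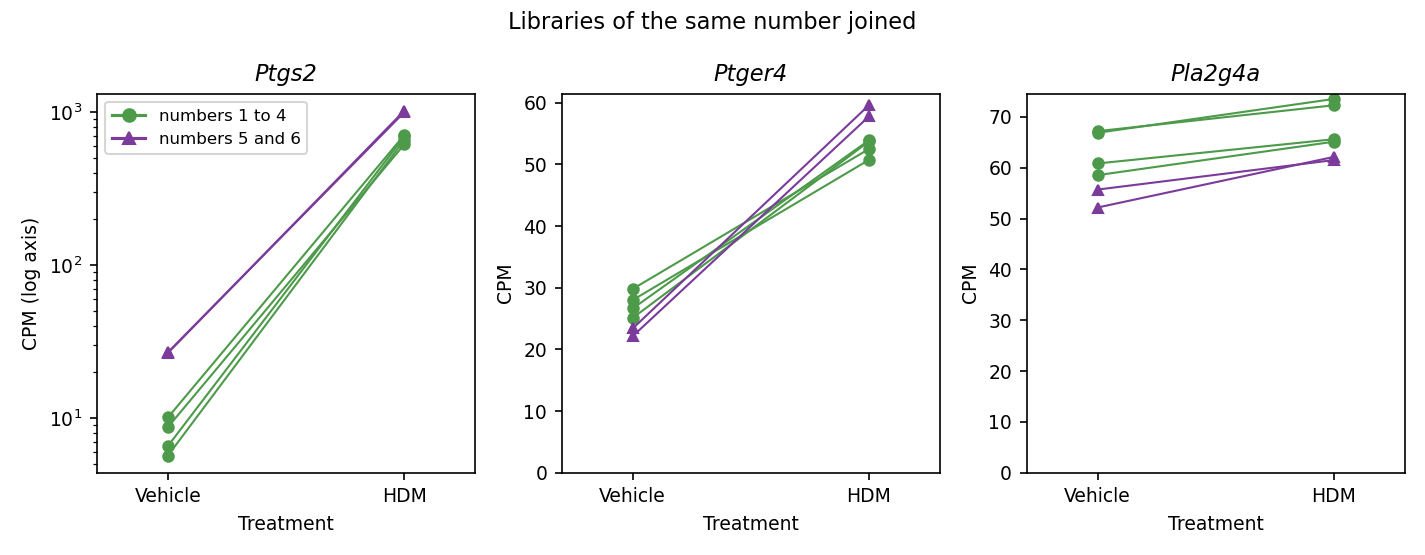
Levels in CPM of Ptgs2 (log axis), Ptger4 and Pla2g4a (linear axes from 0), with the vehicle and the HDM library of the same number joined by a line. Green circles are numbers 1 to 4 and purple triangles numbers 5 and 6. All 6 lines rise in each panel, by 5.21 to 6.85 (log2) for Ptgs2, by 0.82 to 1.38 for Ptger4 and by 0.11 to 0.25 for Pla2g4a.

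Terminal synthases use the prostaglandin H2 that the cyclooxygenases make, and none of the 5 in the set was called in edgeR's test (0 at an unadjusted p under 0.05, and 0 with DESeq2, limma-voom or the replicate block). Ptges encodes the microsomal prostaglandin E synthase that is known to be induced with COX-2 in inflamed tissue. It ran from 5.18 to 7.45 CPM with vehicle (median 6.03) and from 4.96 to 6.93 CPM with HDM (median 6.09). The groups overlapped, and the HDM library was lower in 4 of the 6 numbers. Its log2 fold change was -0.06 ± 0.11 SE (edgeR adjusted p = 0.997), and the 95% interval from -0.31 to 0.20 excluded a change of the size seen in Ptger4.

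Ptges2 and Ptges3, which encode a second membrane-associated prostaglandin E synthase and the cytosolic one (also the HSP90 cochaperone p23), were close to equal in both groups. The mean of Ptges2 was 17.8 ± 1.69 CPM after HDM and 17.6 ± 1.54 after vehicle (SD, n = 6 each; log2 fold change 0.02 ± 0.07 SE, edgeR adjusted p = 0.9997). Ptges3 had means of 96.1 ± 4.91 and 91.9 ± 6.28 CPM (0.06 ± 0.05, adjusted p = 0.731). A pseudogene of the latter, Ptges3-ps, was listed at 7.73 ± 0.578 and 7.78 ± 0.490 CPM. Reads from such copies can be split between gene and pseudogene, so the level of Ptges3 is uncertain to that extent.

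Hpgds, the gene of the hematopoietic prostaglandin D synthase, and Tbxas1, the gene of thromboxane A synthase, were the next step's most abundant transcripts after Ptges3 per kb of exon. Hpgds ran from 148 to 191 CPM with vehicle and from 146 to 179 with HDM (log2 fold change -0.01 ± 0.06 SE, 95% interval -0.15 to 0.13, edgeR adjusted p = 0.9997). Tbxas1 ran from 159 to 192 CPM with vehicle and from 159 to 195 with HDM (-0.01 ± 0.06, interval -0.14 to 0.13, adjusted p = 0.9997). The Tbxas1 gene model overlaps 7 others in the RefSeq table, Hipk2 among them, and that of Ptges overlaps 2; the sources used here do not say how the authors' counting treated shared reads.

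The receptors EP2 and EP4 bind the same ligand and both raise cyclic AMP, and their genes responded differently. Ptger4 ranged from 22.2 to 29.8 CPM with vehicle (median 25.9) and from 50.8 to 59.6 CPM with HDM (median 53.8). The groups did not overlap. The mean was 54.7 ± 3.34 CPM in HDM libraries and 25.9 ± 2.87 in vehicle libraries (SD, n = 6 each), a log2 fold change of 1.08 ± 0.07 SE (edgeR adjusted p = 4.4e-07). Its rise was 134th in size and its p the 31st smallest among all tested genes, while that of Ptgs2 was the 47th smallest.

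In Ptger4 the libraries numbered 5 and 6 were the lowest with vehicle, at 22.2 and 23.4 CPM against 25.1 to 29.8 in the other 4. With HDM they were the highest, at 57.8 and 59.6 CPM against 50.8 to 53.9. The log2 fold change was 0.95 ± 0.05 SE within numbers 1 to 4 (edgeR adjusted p = 3.27e-08) and 1.36 ± 0.06 within numbers 5 and 6 (adjusted p = 3.24e-23). The larger fold of Ptger4 therefore lay in the numbers with the smaller fold of Ptgs2, and neither difference was tested. As for Ptgs2, the p within numbers 5 and 6 rests on the spread between those few libraries and on that shared across genes.

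Ptger2 ran from 6.56 to 9.48 CPM with vehicle (median 7.31) and from 5.49 to 10.2 CPM with HDM (median 7.49). The groups overlapped throughout, and its log2 fold change was 0.00 ± 0.15 SE (edgeR adjusted p = 0.9997, 95% interval -0.33 to 0.34). By number it was higher with HDM in numbers 1 to 4, by 0.02, 0.07, 0.28 and 0.10 on the log2 scale, and lower in numbers 5 and 6, by -0.33 and -0.26. Within numbers 5 and 6 alone the fall was not called (-0.27 ± 0.12 SE, edgeR adjusted p = 0.174). The ratio of Ptger4 to Ptger2 per kb of exon was 2.39 to 2.91 in the vehicle libraries and 4.03 to 8.48 in the HDM libraries.

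The sequence before the Ptger4 start is shown as that of the second induced gene, at chr15:5244188-5244437 on the minus strand of GRCm38.p6 in the RefSeq table, with capitals as above.
Ptger4: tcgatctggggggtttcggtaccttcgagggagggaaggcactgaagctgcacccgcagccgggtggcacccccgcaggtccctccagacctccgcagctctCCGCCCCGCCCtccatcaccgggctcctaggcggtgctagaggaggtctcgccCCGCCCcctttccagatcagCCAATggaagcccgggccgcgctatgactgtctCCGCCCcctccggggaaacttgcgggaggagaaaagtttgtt
It held 4 GC boxes on the minus strand, the first a pair that overlaps by 1 base 148 to 138 bases before the start, and a CCAAT box 75 to 71 bases before it (held by 37.4% of promoters). It shared the GC box with Ptgs2, a motif that 35.7% of promoters hold, and had none of the C/EBP palindrome, the response element's core or the E-box. The kappa B motif, held by 4.51% of promoters, was in neither window nor in that of any other of the 10 genes.

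**Figure D3:**
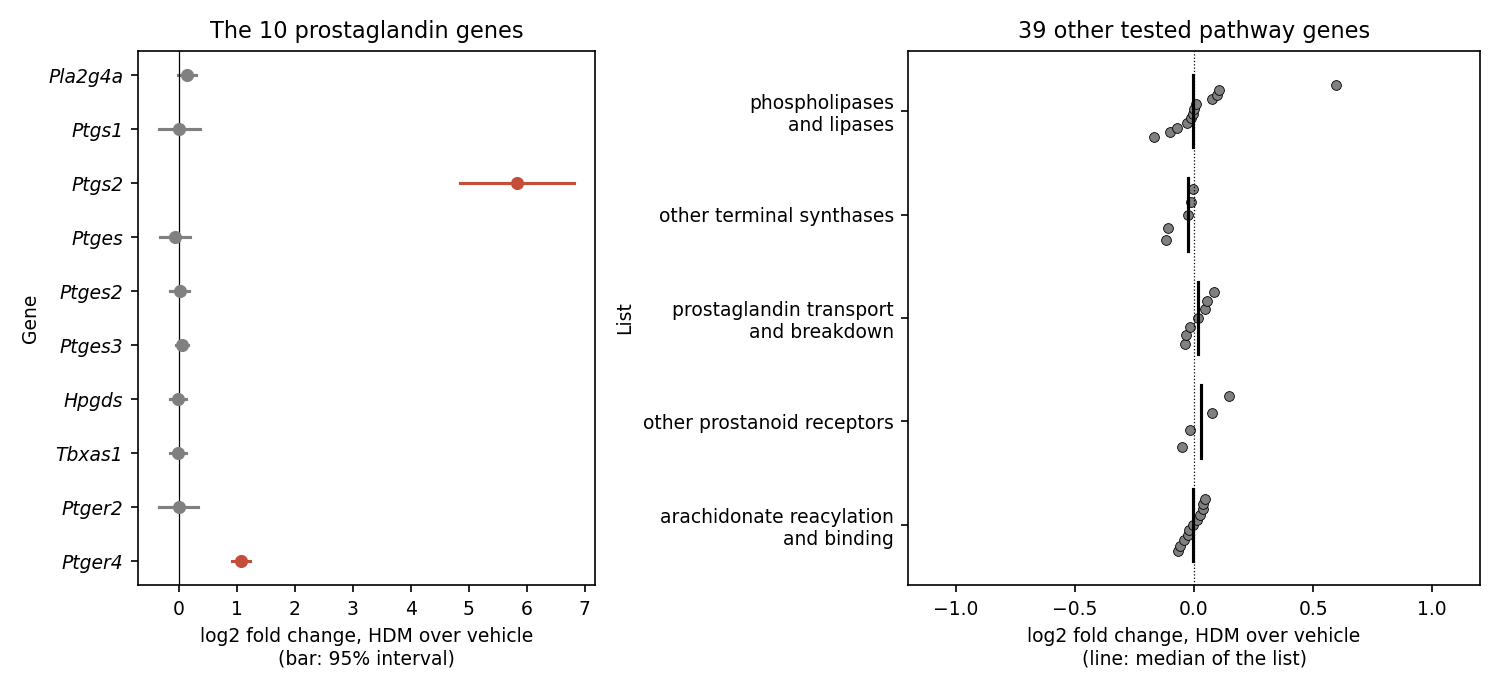
Left, log2 fold change of HDM over vehicle for the 10 genes with 95% intervals (edgeR standard error, 10 residual degrees of freedom), red where called. Right, the same quantity for the 39 tested genes of 5 other lists of the pathway, 1 point a gene with the list's median as a line; 38 of the 39 lie within 0.2 of 0.

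Per kb of exon, levels can be set in order across genes. With vehicle the order was Ptges3 (41.5 ± 2.83 CPM per kb, SD, n = 6), Hpgds (26.1 ± 2.32), Tbxas1 (19.2 ± 1.49), Pla2g4a (9.42 ± 0.942), Ptgs1 (4.25 ± 0.986), Ptger4 (3.89 ± 0.432), Ptges2 (3.47 ± 0.304), Ptgs2 (3.08 ± 2.17), Ptges (1.58 ± 0.228) and Ptger2 (1.47 ± 0.195). Each of the first 4 was separated from the next by ranges that did not overlap, while neighbours from Ptgs1 down overlapped. With HDM, Ptgs2 moved from the eighth place to the first, at 171 ± 39.1 CPM per kb, and its lowest library (134) lay above the highest of Ptges3 (46.0). Ptger4, at 8.23 ± 0.502, was again in the sixth place, having passed Ptgs1 while Ptgs2 passed Ptger4. It no longer overlapped with Ptgs1, now below it, and as with vehicle did not overlap with Pla2g4a above it. Exon lengths came from another annotation than the authors may have used, so this order is approximate. They also join all annotated exons of a gene, 9.094 kb for Tbxas1 against 2.217 kb for Ptges3. Before division by length, Tbxas1 (175 CPM with vehicle) and Hpgds (168) were above Ptges3 (91.9). The ranges show the spread between libraries and not the error of the lengths.

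**Figure D4:**
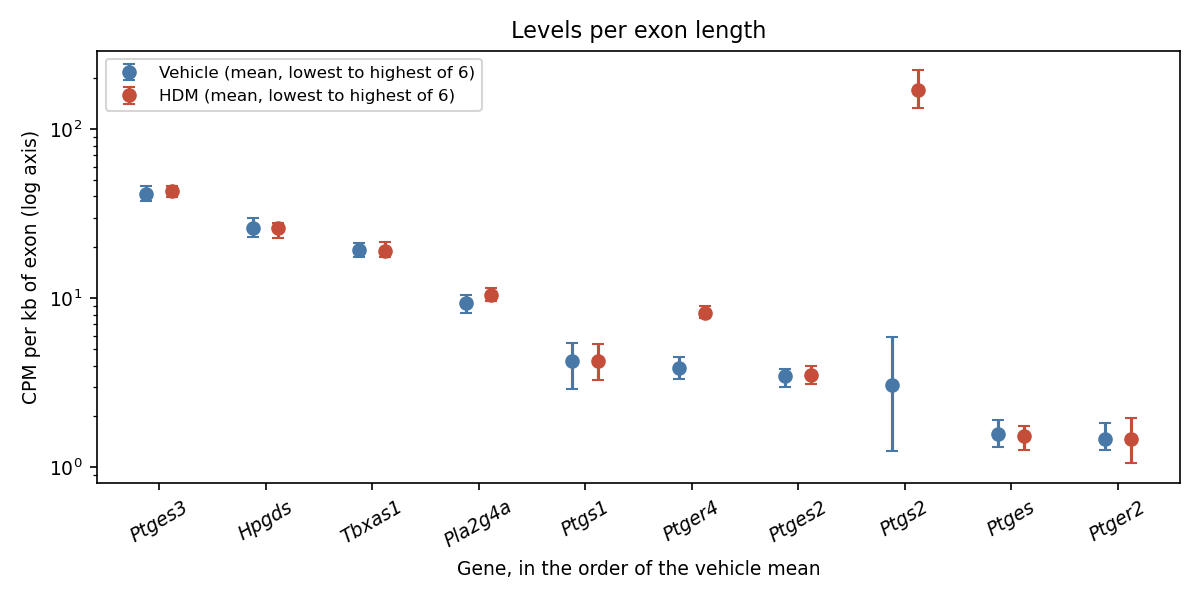
Level per kb of exon in CPM per kb (log axis), genes in the order of the vehicle mean. Points are means of 6 libraries and bars run from the lowest to the highest library. With HDM, Ptgs2 moves from 3.08 to 171 CPM per kb, above all other 9 genes.

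The split between library numbers ran through most of the set. In 8 of the 10 genes the libraries numbered 5 and 6 did not overlap with those numbered 1 to 4 in either treatment, as in 36.9% of all tested genes. Ptgs1, Ptgs2, Ptges2 and Tbxas1 were higher in numbers 5 and 6 in both treatments, and Ptges, Pla2g4a and Hpgds were lower. Ptger4 lay on opposite sides in the 2 treatments, a pattern seen in 0.421% of all tested genes. Ptges3 overlapped in both treatments, and Ptger2 overlapped with vehicle and was lower with HDM. The sources used here do not say what differs between the sets of numbers.

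Beyond the 10 genes, 51 genes of the pathway were listed: phospholipases and lipases, other terminal synthases, transport and breakdown of prostaglandins, other prostanoid receptors and related genes, and the binding and re-esterification of arachidonate. All 51 were found, Ptgr3 under the symbol Zadh2, and 39 were tested. None of the 39 was called in edgeR's test (1 at an unadjusted p under 0.05, as 14% of all tested genes were, 0 with DESeq2 and 0 with limma-voom), and in none did the groups separate. The gene at that p was Cbr1, a carbonyl reductase that can act on prostaglandins, at 27.7 ± 1.24 CPM after HDM and 30.07 ± 1.82 after vehicle (SD, n = 6 each; log2 fold change -0.12 ± 0.05 SE, edgeR adjusted p = 0.229). Each of the 6 numbers had the lower level in its HDM library, and the fit with the replicate block called it lower (adjusted p = 0.0208), beside 6.81% of all tested genes.

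By list, none of 12 tested phospholipases and lipases, 5 terminal synthases, 7 transport and breakdown genes, 4 genes of the receptor list or 11 arachidonate-handling genes was called, with median log2 fold changes of 0.00, -0.03, 0.02, 0.03 and 0.00. Pla2g15, a lysosomal phospholipase gene, stood at 135 ± 14.9 CPM with HDM and 136 ± 16.7 with vehicle, and Daglb, a diacylglycerol lipase gene, at 107 ± 4.88 and 108 ± 6.58. Among synthases, the aldo-keto reductase genes Akr1b3 and Akr1b8 were at log2 fold changes of -0.01 ± 0.04 SE and -0.01 ± 0.16. The exporter gene Abcc1 was at 0.05 ± 0.10 and Ptgr1, which encodes a prostaglandin reductase, at -0.02 ± 0.05. Pparg, the gene of a nuclear receptor that prostaglandin D2 products can activate, was at 0.08 ± 0.06 and Ptgfrn at -0.02 ± 0.14. Anxa1, which encodes annexin A1, known to restrain phospholipase A2, was at -0.04 ± 0.05 and Fabp5, a fatty acid binding protein gene, at -0.07 ± 0.21. The furthest from 0 was Pla2g4c, named after its value was seen, at 0.59 ± 0.39 (edgeR adjusted p = 0.647) and a level of 0.519 ± 0.264 CPM with HDM and 0.326 ± 0.201 with vehicle.

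The 12 listed genes that did not pass the filter on low counts had 0 to 118 reads over all libraries. Among other prostaglandin E receptors, Ptger3 had 118 reads, and Ptger1 was tested at 1.04 CPM with HDM and 1.07 with vehicle (edgeR adjusted p = 0.9997). Ptgds, the gene of the lipocalin-type prostaglandin D synthase, and Ptgdr, the gene of a prostaglandin D2 receptor, had 0 reads of 553.751 M, which allows up to 0.00542 per M reads by counting error alone. The thromboxane receptor gene Tbxa2r had 3 reads and the prostaglandin F receptor gene Ptgfr 1, so no change in these could be seen at this depth.

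Beside Ptgs2 the table lists 2 RNAs named for its opposite strand, both singled out after their values were seen. Ptgs2os2 rose, with 0.955 ± 0.235 CPM in vehicle and 1.67 ± 0.0903 in HDM libraries (log2 fold change 0.78 ± 0.15 SE, edgeR adjusted p = 0.00631), without overlap between the groups. Ptgs2os, the model next to Ptgs2 in the RefSeq table, had 22 reads in all with HDM and 0 with vehicle. With 3 reads over the vehicle group taken as the floor, Ptgs2os was at least 5.98-fold higher per M reads, with no counting error on the 22 reads. It did not pass the filter on low counts and was not tested in the main fit. No model overlaps Ptgs2 in that table, while the annotation and strand setting of the authors' counting are unknown here.

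Genes whose levels followed those of the induced pair were looked up by Pearson's r of log2 CPM over the 12 libraries, as a description to which the treatment difference contributes. Nearest to Ptgs2 were Nr4a1 (r = 0.998), Zfp36 (0.997), Fos (0.996), Ier3 (0.995) and Dusp1 (0.995), and among the nearest to Ptger4 were Ier2 (0.995), Nfkbia (0.994), Phlda1 (0.991) and Nfkbiz (0.990). Over deviations from the group means, which still hold the difference between numbers 5 and 6 and numbers 1 to 4, r was 0.959, 0.957, 0.974, 0.876 and 0.984 for those near Ptgs2, in the same order, and 0.870, 0.942, 0.781 and 0.880 for those near Ptger4. Nearest to Ptges were 9630028I04Rik, Acy1, Fhod1, Lmna and Pdlim4 (r from 0.934 to 0.946), with log2 fold changes between -0.13 and 0.01.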

How the data were processed

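Per the labels' protocols, libraries were prepared with a stranded mRNA kit from column-purified, DNase-treated RNA. The authors deposited raw counts, unscaled, in 1 table with a column for each of the 12 libraries. The submitters' processing notes name, without roles, STAR 2.6.0c, featureCounts 2.0.6, Subread, Trim Galore 0.6.10, cutadapt 4.5 and FastQC 0.12.1, and the builds GRCm38 and mm39. The sources used here do not give the annotation, strand setting or read layout.

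Counts were tested with edgeR 4.0.16 (quasi-likelihood F test, two-sided, R 4.3.3, limma 3.58.1) on the whole table, with TMM factors, filterByExpr at its defaults, group as the only term and Benjamini-Hochberg adjustment. The standard error is the log2 fold change over the square root of F, and 95% intervals use 10 residual degrees of freedom. The script was tested on simulated data. Alternatives were other scalings, no filter, DESeq2 1.42.0, limma-voom, the replicate number as a block, each library left out, and each set of library numbers alone. Exon-union lengths came from GENCODE M21 (GRCm38). Promoters matched all 10 symbols, with 11 entries.

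Members, lists and tests were chosen with earlier results of these data known. Genes named are the 10 members, called genes and the 2 with the highest mean CPM of each other list, and the 5 nearest of 3 members among genes of at least 1 CPM; a few that the rules pick are not reported here. No 2 libraries of a group agreed within sampling noise (chi-square per degree of freedom at least 2.26). Between numbers 1 and 2, 3 and 4, and 5 and 6 of a group this value ran from 2.26 to 19.6. Other pairs of a group ran from 10.0 to 88.8. The labels do not say why, and the libraries of a group may not be independent of each other. Deviations from the group means correlated between equal numbers at 0.467, 0.367, 0.387, 0.479, 0.624 and 0.672, all above the bound of 0.1 used to take numbers as pairs. This rests on the data and not on the labels, and it does not single out equal numbers: only HDM libraries 2 and 6 correlated best with the vehicle library of their own number, while 1, 3, 4 and 5 did so with 2, 4, 3 and 6.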

Additional observations from a re-analysis of the deposited data

How the results depend on the processing

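Ptgs2 and Ptger4 were called higher under all 21 alternatives, which called from 303 to 1069 of all tested genes higher. The log2 fold changes of the pair were 5.24 to 6.46 and 0.95 to 1.36. Leaving out each library in turn gave 5.65 to 6.15 (edgeR adjusted p from 2.02e-06 to 1.73e-05) and 1.04 to 1.13 (6.59e-07 to 3.67e-06). The other 8 members changed call only for Pla2g4a, called with the replicate block and within numbers 5 and 6 alone, at 0.11 to 0.21 over all alternatives. With the replicate block the genes of the other pathway lists that were called lower went from 0 to 1 (Cbr1), and none was called higher. The block changed no other call among the members or the pathway lists. Over all tested genes it raised the calls from 393 to 1069 higher and from 334 to 921 lower. Of the 8, the sign held throughout for Ptges3 and Pla2g4a, and in 11 to 20 of the 21 alternatives for the other 6, which lie near 0. Few reads limit what can be said of Ptgs2os, Tbxa2r and Ptgfr. They did not pass the filter on low counts and entered only the fit without it.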
